A study of Sus scrofa with 23 samples.

Results

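The passage from 8-cell embryos to morulae in vivo was read from 2 of the 23 libraries of the series, 1 of Duroc 8-cell embryos and 1 of Duroc morulae (the IV-D group). Its members were those genes of the deposited FPKM table that reached 1 FPKM in at least one of these libraries, which held for 7330 of 8603 genes. FPKM counts fragments per kilobase of gene per 1000000 fragments of the library, so every value is a share of its library and not an amount per embryo. The study followed in vivo fertilized pig embryos and clones from the oocyte to the blastocyst.

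The 8-cell embryos were flushed from a Duroc sow 78 to 80 h after insemination and the morulae 118 to 120 h after it. No treatment was given, and the zona was removed from all of them before lysis. The same Duroc boar sired all IV-D embryos. Each library is a pool of embryos of both sexes, whose sex was not determined, from the sow of that stage. Stage, sow and litter therefore cannot be told apart, and no value has a biological error. The groups set beside this step were clones, with 1 library for each stage. They were made by transferring ear fibroblasts of a Duroc (NT-D group) or Laiwu boar (NT-LW group) into oocytes matured in vitro. Both boars were 1 year old, and the clones were all male and were cultured in vitro. Cloning, culture, sex and oocyte source therefore cannot be told apart where clones are set beside IV-D embryos. The IT and TE libraries came from IV-D blastocysts cut by hand into a part with inner cell mass and trophectoderm (IT) and a part with trophectoderm alone (TE). The labels name the stage of the morulae and do not say how far they had compacted.

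At compaction the loosely joined blastomeres of a morula flatten against each other. E-cadherin and its catenins hold the cells together, an actin and myosin cortex under the surface tightens, and the outer cells gain an apical face marked by ezrin and atypical protein kinase C. Tight junctions, desmosomes and keratin filaments then turn the outer cells into the epithelium that becomes the trophectoderm, while the Hippo pathway keeps YAP1 and WWTR1 out of the nuclei of the inner cells. In bulk RNA, fewer cells of a type and less RNA per cell cannot be told apart.

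A gene was counted as higher or lower in the morula when log2(FPKM + 1) differed by more than 1, a rule of size and not a test, and "rose" and "fell" mean only that. By this rule 903 genes were higher, 12.3% of those compared, and 994 were lower, 13.6%. The counts of gene lists given below are to be read beside these shares. The other 5433 genes passed in neither direction, and the median difference of all genes compared was -0.03 on the log2 scale. Adding 1 to each FPKM value understates the change of genes with low values. VTI1B lay just inside the upper limit and CEP295 just inside the lower, and 300 genes lay within 0.1 of the upper limit and 344 within 0.1 of the lower. Differences over 2 on this scale were found for 186 genes upward and 198 downward. The depth was 20549009 fragments for the 8-cell embryos and 21077697 for the morulae, and the table took 95.3% and 95.8% of it. Intervals given below are exact 95% intervals of the fragments (Poisson for a level, Clopper-Pearson for a ratio). They cover counting error only, since amplified reads carry no molecular identifiers.

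**Figure D1:**
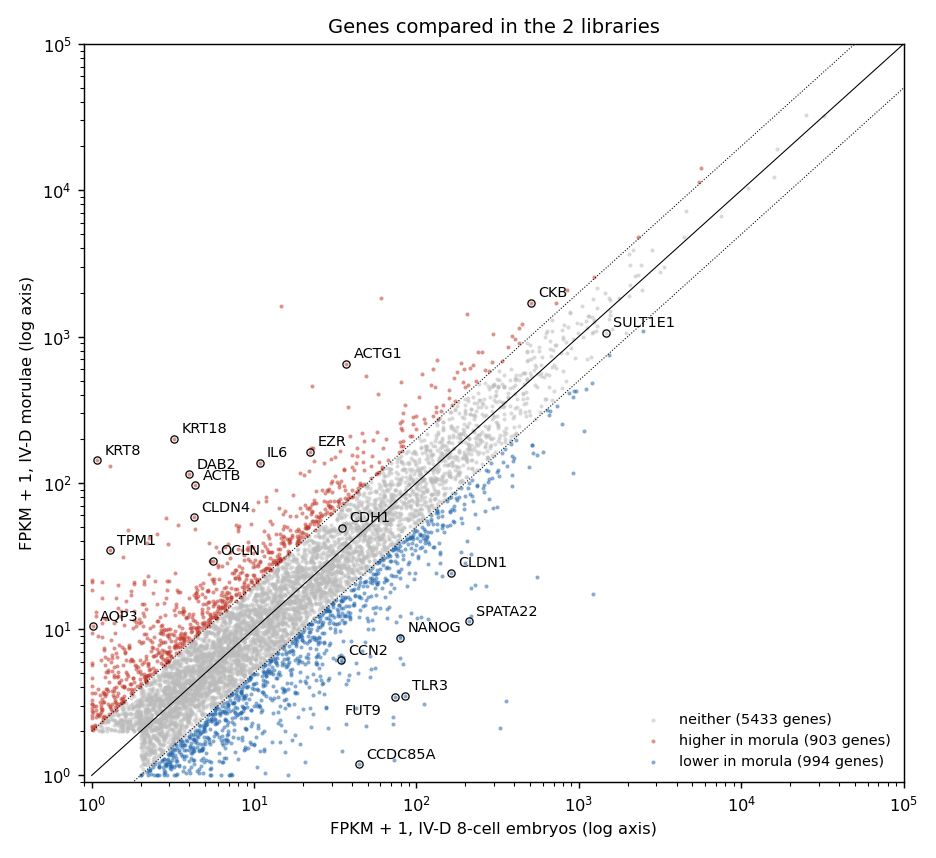
FPKM + 1 of each gene compared in IV-D 8-cell embryos (horizontal, log axis) and IV-D morulae (vertical, log axis), 1 library each, with the line of equality and dotted lines at the limits of the rule. Red points are the 903 genes higher in the morula and blue points the 994 lower, and KRT8, KRT18 and DAB2 stand farthest above the line among the genes labelled.

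Keratins made the largest rises of all genes with a symbol. KRT8 and KRT18 form the paired filaments of simple epithelia, and their genes lie on chromosome 5 at 18172423 to 18180277 (minus strand) and 18217686 to 18221432 (plus strand) of Sscrofa11.1. KRT8 (ENSSSCG00000000252) had an FPKM value of 0.0803 in 8-cell embryos (0.0295 to 0.175, 6 fragments) and 142 in morulae (10917 fragments), a ratio of 1774 (815 to 4835). KRT18 (ENSSSCG00000000253) went from 2.21 to 199.9, a ratio of 90.4 (76.3 to 108). Neither had passed an FPKM value of 1 in the oocyte, 2-cell or 4-cell library, where KRT8 was at 0.271, 0.167 and 0.607. In the blastocyst parts KRT8 was at 626 in IT and 549 in TE, and KRT18 at 627 and 582, so both rose into a level that was higher still after the morula. Desmosome genes moved the same way by less. DSG2, a desmosomal cadherin, went from 1.09 to 11.2, a log2 difference of 2.55, and PKP2, a plaque protein, from 7.67 to 17.5 (1.09). DSC2 rose from 36.3 to 75.1 (1.03), a call that ended when each library was rescaled to a common sum, and DSP, the plaque protein desmoplakin, went from 3.06 to 7.10 and stayed just under the limit. Of the 6 desmosome and keratin genes compared, 5 rose and 0 fell, with a median of 1.82.

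The promoters printed here were read from the genome at the gene starts of the RefSeq annotation of Sscrofa11.1. The stretch of KRT8 below is the 250 bases before its annotated start, chr5:18180278-18180527 on the minus strand, and is shown because KRT8 made the largest rise. Capitals mark the letters GGAATG on either strand, the core that TEAD factors bind.

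KRT8: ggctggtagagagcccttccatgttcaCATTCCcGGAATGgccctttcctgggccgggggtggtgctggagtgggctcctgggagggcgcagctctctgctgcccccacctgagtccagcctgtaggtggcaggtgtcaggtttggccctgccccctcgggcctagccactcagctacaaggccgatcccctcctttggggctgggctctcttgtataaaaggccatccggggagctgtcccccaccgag

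The 2 matches lie on opposite strands, 223 and 216 bases before the start. Matches of this kind were no more frequent among the promoters of genes that rose (10.6% of 725) than among all 6896 promoters of the table (11%), both in windows that also took the first 50 bases after the start.

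Actin and several of its partners were also among the large rises. ACTG1 and ACTB encode the non-muscle actins, TPM1 a tropomyosin that winds along actin filaments, MYL9 a regulatory light chain of myosin, ACTN1 a cross-linker and VCL vinculin, which ties filaments to junctions. ACTG1 (chromosome 12, 1320355 to 1323219) was at 36 FPKM in 8-cell embryos and 653 in morulae, a ratio of 18.1 (17.3 to 19). ACTB (chromosome 3, 4084275 to 4090383) went from 3.35 to 95.6, a ratio of 28.6 (24.6 to 33.4). TPM1 (chromosome 1, 108986981 to 109016090) went from 0.291 to 33.8, a ratio of 116 (76.5 to 185). The actins are near-identical as proteins and have similar coding sequences, so how reads from shared stretches were divided is uncertain. The sum of the pair rose in either case. VCL (chromosome 14, 76700143 to 76811875) went from 0.820 to 12.3 and ACTN1 from 1.46 to 20.3. MYL9 went from 0.151 to 15.2, a log2 difference of 3.82. These genes differed in their history. VCL and TPM1 had been present in the oocyte at 3.97 and 4.23 and had their lowest value of the 8 IV-D libraries in the 8-cell embryos, whereas DAB2, CLDN4 and KRT18 had been at 1.03 or less in the 4 earlier libraries. Of the 27 cortical actomyosin genes compared, 13 rose, 1 fell and 13 stayed within the limits, with a median of 0.92. The gene that fell was LIMA1, an actin bundling protein, from 14.6 to 5.96. CFL1, RHOA, RAC1 and MYL6 were among those within the limits.

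The promoters of ACTG1 and VCL are shown because these genes rose together and each holds a CArG box, the element bound by serum response factor, in the 250 bases before its start. Capitals mark the box. The windows are chr12:1320105-1320354 (plus strand) for ACTG1 and chr14:76699893-76700142 (plus strand) for VCL.

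ACTG1: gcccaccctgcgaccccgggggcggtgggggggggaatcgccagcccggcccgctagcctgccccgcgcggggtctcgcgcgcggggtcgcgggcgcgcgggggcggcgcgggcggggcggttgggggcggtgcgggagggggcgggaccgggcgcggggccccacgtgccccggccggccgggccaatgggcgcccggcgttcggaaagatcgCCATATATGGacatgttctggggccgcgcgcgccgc

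VCL: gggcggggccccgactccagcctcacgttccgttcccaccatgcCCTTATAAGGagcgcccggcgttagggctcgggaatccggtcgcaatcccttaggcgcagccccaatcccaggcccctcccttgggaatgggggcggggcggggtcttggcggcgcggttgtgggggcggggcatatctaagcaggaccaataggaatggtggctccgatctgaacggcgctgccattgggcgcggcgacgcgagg

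The boxes lay 36 and 206 bases before the annotated starts. In windows of 300 bases (250 before the start and 50 after), 4 of the 13 actomyosin genes that rose had a CArG box on either strand, among them MYL9, against 1.54% of all 6896 promoters and 2.21% of the 725 promoters of genes that rose. This element was searched after the values of these genes were seen, its letters can overlap the TATA motif, and a match does not show that a factor was bound.

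Adhesion genes at the core of compaction moved less than the cytoskeleton. CDH1, which encodes E-cadherin, had an FPKM value of 33.9 in 8-cell embryos and 48.3 in morulae, a ratio of 1.43 (1.36 to 1.49). CTNNB1 (beta-catenin) was at 18.7 and 30.7, CTNNA1 (alpha-catenin) at 12.9 and 22.1, and EPCAM, an epithelial adhesion molecule, at 45.3 and 72.9. These 4 genes were higher in the morula by 0.50 to 0.73 on the log2 scale, within the limits of the rule. Past it were VCL, JUP (plakoglobin), from 6.23 to 15.5, and AFDN (afadin), from 1.31 to 3.94, of which JUP and AFDN no longer passed with a pseudocount of 5. Of 11 adherens junction genes compared, 3 rose and 0 fell, with a median of 0.67.

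Claudins among the tight junction genes moved in different directions. CLDN4 rose from 3.26 to 57.0, a ratio of 17.5 (14.5 to 21.3), OCLN (occludin) from 4.58 to 28.4 and CLDN6 from 57.9 to 138. CLDN1 fell from 163 to 23.3, a 6.99-fold drop (6.71 to 7.28) and went from above CLDN6 to below it. CLDN8 had the highest level of the claudins in both libraries, at 308 and 398, and did not pass. In IT and TE, CLDN1 was at 9.06 and 0.548, CLDN4 at 105 and 42.6 and CLDN6 at 215 and 194, so CLDN4 too was lower in TE. TJP1 (the scaffold ZO-1) was at 5.98 and 10.7, within the limits. Of the 12 tight junction genes compared, 3 rose and 1 fell (25% and 8.33%, beside 12.3% and 13.6% of all genes).

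Among polarity genes the rises were in the proteins that link membrane and cortex. EZR (ezrin) went from 21.2 to 162, a ratio of 7.65 (7.21 to 8.13), after 15.9 to 25.5 in the oocyte, 2-cell and 4-cell libraries. MSN (moesin), of the same family, went from 0.619 to 14.6 and DLG3, a basolateral scaffold, from 1.61 to 6.74. The apical partners PARD6B and PRKCI were lower in the morula, at 62.2 and 35.5 and at 8.96 and 6.23, without passing the limit. Of 12 polarity genes compared, 3 rose (25%, beside 12.3% of all genes) and 0 fell.

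Genes of the Hippo pathway did not all move the same way. TEAD4, the DNA-binding partner of YAP1 in the trophectoderm, was at 14.5 and 16.2, YAP1 at 3.02 and 2.82 and LATS2, the kinase that acts on it, at 0.984 and 0.995. WWTR1 (TAZ) rose from 15.8 to 46.9 and AMOT (angiomotin), which holds YAP1 at junctions, from 4.29 to 14.2. The YAP1 targets CCN1 and CCN2 went opposite ways. CCN1 rose from 1.16 to 5.20, and CCN2 fell from 33.5 to 5.16, a 6.49-fold drop (5.91 to 7.15). Of 15 genes compared, 4 rose and 1 fell (26.7% and 6.67%, beside 12.3% and 13.6% of all genes), with a median of 0.15. By some amount 11 of the 15 were higher in the morula.

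Most of the trophectoderm genes compared rose. Of 24 markers listed, 13 were compared, 9 rose and 0 fell, with a median of 1.55 against -0.03 for all genes. DAB2, an endocytic adaptor of absorptive epithelia, went from 3.0 to 114, a ratio of 37.9 (33.6 to 42.9), and LRP2, the receptor megalin, from 32.8 to 163. The prostaglandin enzymes PTGS2 and PTGES went from 1.2 to 38 and from 107 to 552. Their blastocyst values were higher again, with PTGS2 at 113 in IT and 218 in TE and PTGES at 1322 and 1042. Over the list the summed FPKM was 1770 in IT and 1628 in TE. PTGES made most of both sums, so they do not give the direction of the other members. ELF3 was lower in TE (11.07 and 2.40) while GATA3 was higher there (5.42 and 14.03). GATA2, GATA3 and ELF3, transcription factors of the lineage, rose from 10 or fewer fragments to low levels, calls that all ended with a pseudocount of 5. GATA2 had 0 fragments in 8-cell embryos and was at 1.13 FPKM in morulae, 33.8-fold above the level of 3 fragments. ELF3 had 0 fragments and then 2.28, 54.3-fold above that level. GATA3 went from 0.169 to 1.5. TFAP2C was at 12.1 and 11.9 and did not pass. CDX2, TFAP2A and EOMES were not analysed here. For the blastocoel, AQP3, a water and glycerol channel, went from 2 fragments to 960 and from an FPKM value of 0.0204 to 9.54, a ratio of 468 (129 to 3870). AQP11, a channel of the same family, was at 6.91 and 5.60. ATP1B1 and ATP1B3 were not analysed here.

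Pluripotency genes split. NANOG fell from 78.1 to 7.73, a 10.1-fold drop (8.54 to 12.1), continuing down from 269 at the 4-cell stage, and was at 9.80 in IT and listed at 0 in TE. NR5A2 fell from 9.47 to 2.87. KLF4 was at 61.3 and 42.8 and KLF17 at 16.9 and 12.4, lower within the limits. LIN28A, an RNA-binding protein of stem cells, rose from 1.26 to 40.8, TBX3 from 7.39 to 23.7 and MYC from 3.76 to 10.02. LIN28A had been at 14.9 in the oocyte and 27.6 in the 4-cell library, so its rise followed a dip in the 8-cell library. In all 14 were compared, of which 5 rose (35.7%, beside 12.3% of all genes) and 2 fell (14.3%, near the 13.6% of all genes). POU5F1, SOX2 and SALL4 were not analysed here. Of primitive endoderm genes, GATA6 rose from 28.3 to 66.7 and PDGFRA, a growth factor receptor, from 1.25 to 4.25, and both were higher in IT (37.7 and 11.6) than in TE (21.4 and 0.0614).

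**Figure D2:**
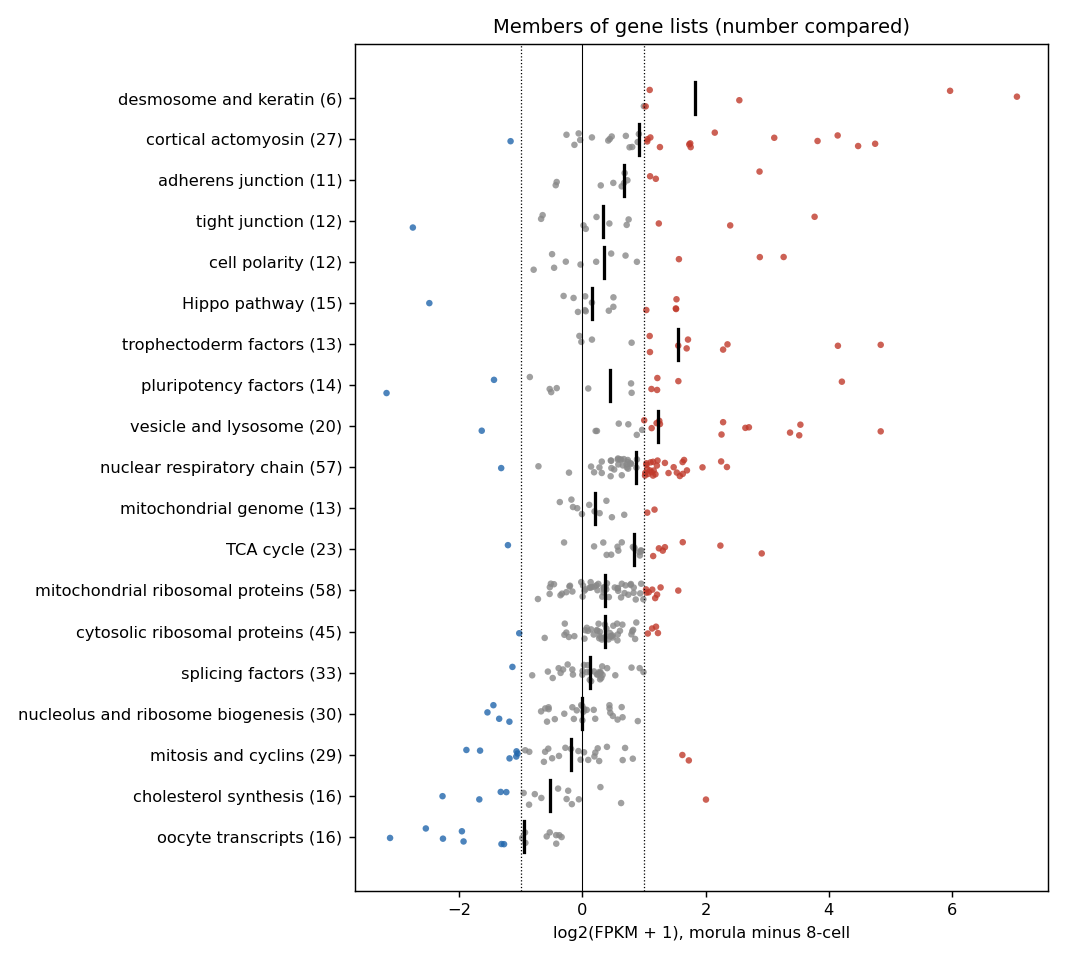
Difference of log2(FPKM + 1), morula minus 8-cell embryos in the IV-D group (horizontal), for each compared member of 19 gene lists, with red points higher, blue points lower, grey points within the dotted limits and a black bar at the median. The medians run from 1.82 for desmosome and keratin genes to -0.96 for oocyte transcripts.

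Beyond the lists above, the clearest rises were in lysosomes and mitochondria. Of 20 vesicle and lysosome genes compared, 13 rose and 1 fell, with a median of 1.22. The lists are not separate, since DAB2, the largest rise here, is also counted among the trophectoderm markers. CTSD (cathepsin D) went from 0.820 to 20.1, HEXA, a subunit of beta-hexosaminidase, from 0.416 to 15.2 and PSAP, which activates sphingolipid breakdown, from 0.751 to 17.1. All 3 were below 1 in the 8-cell embryos, and in IT they were at 136, 63.4 and 52.6. The member that fell was RAB5A, a GTPase of early endosomes, from 119 to 37.5.

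Of 57 nuclear genes of the respiratory chain, 27 rose and 1 fell, and 54 of 57 were higher in the morula by some amount. Their median was 0.88. NDUFA10, a subunit of complex I, went from 25.9 to 136, UQCRC1, of complex III, from 39.3 to 155 and ATP5MC1, of the ATP synthase, from 126 to 603. COX6A2, a complex IV subunit typical of muscle, fell from 32.1 to 12.3. The 13 protein genes of the mitochondrial genome had a median of 0.20, with 2 higher (CYTB and ATP8, which overlaps ATP6) and 0 lower, and ranged from -0.37 to 1.17. The TCA cycle moved with the nuclear subunits, with 7 of 23 higher, 1 lower and a median of 0.84. SUCLA2, of succinyl-CoA synthetase, went from 22.1 to 173 and MDH2, the mitochondrial malate dehydrogenase, from 13.3 to 66.3, while its cytosolic counterpart MDH1 fell from 183 to 78.4. Mitochondrial ribosomal proteins had 8 of 58 higher and 0 lower (median 0.36), and cytosolic ribosomal proteins 4 of 45 higher and 1 lower (median 0.36), so 13.8% and 8.89% rose beside 12.3% of all genes.

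Other metabolic lists were mixed. Glycolysis had 2 of 11 genes higher and 0 lower, with PGAM1 at 42.3 and 173 and ALDOA at 6.33 and 23.1. By some amount 9 of the 11 were higher in the morula, and the median was 0.56. LDHA and HK2 were lower within the limits, at 42.0 and 27.1 and at 4.35 and 2.75, and LDHA was the lowest of the list. Of 16 cholesterol synthesis genes, 4 fell and 1 rose, with a median of -0.53. SC5D, which acts late in the pathway, fell from 67.0 to 13.1 and MSMO1 from 77.4 to 23.6, while ACAT2, which makes acetoacetyl-CoA at its start, rose from 3.41 to 16.7. Among antioxidant genes SOD2, of the mitochondrial matrix, rose from 6.92 to 47.8 and GSTM3, a glutathione transferase, fell from 106 to 11.09. For amino acids, SLC3A2, the heavy chain of amino acid exchangers, went from 0.157 to 20.1 and ASS1, of arginine synthesis, from 38.1 to 209. SULT1E1, an estrogen sulfotransferase, was at 1473 and 1061, and ARG1 at 309 and 354, within the limits, while CKB, brain creatine kinase, rose from 504 to 1708.

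Growth factor genes gave 10 higher and 5 lower of 32. These are shares of 31.3% and 15.6%, beside 12.3% and 13.6% of all genes, so the falls were near that of all genes. IL6, a cytokine that acts through gp130, rose from 9.84 to 136, EGFR from 0.420 to 5.85 and AXIN2, a Wnt target, from 0.202 to 3.70. BMP4 fell from 3.14 to 0.425. IL6 was at 0.0971 in the 4-cell library and at 50.4 in IT and 107 in TE, so its morula value was the highest of these.

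Genes of division and of RNA processing had few rises. Of 29 mitosis genes compared, 6 fell (20.7%, beside 13.6% of all genes) and 2 rose (median -0.19). CCNB1 (cyclin B1) went from 965 to 424, CDK1 from 869 to 413 and CCNB3 from 27.9 to 6.83, while BIRC5 (survivin) rose from 29.0 to 98.2 and CDK4 from 8.50 to 28.2. Among 30 nucleolar genes 0 rose and 4 fell, a share of 13.3% that is near that of all genes, among them UTP4 from 219 to 79.9. Among 33 splicing factors 0 rose and 1 fell, SNRPB2 from 135 to 61.0. Chromatin genes gave 3 higher and 1 lower of 26. DNMT3A, a de novo DNA methyltransferase, rose from 0.831 to 3.37, and the maintenance enzyme DNMT1 was at 53.6 and 28.7, within the limits, after 3581 in the oocyte. Other lists gave counts on both sides or few calls, beside 12.3% higher and 13.6% lower of all genes. Fatty acid and lipid droplet genes had 2 higher and 3 lower of 17, antioxidant genes 5 and 3 of 22, amino acid transport and arginine genes 6 and 2 of 16, and solute carriers 28 and 16 of 100. Chaperones had 4 higher and 1 lower of 28, replication genes 3 and 4 of 36, proteasome subunits 2 and 1 of 33, translation factors 2 and 2 of 45, and tRNA synthetases 1 and 0 of 23. Apoptosis genes had 5 higher and 2 lower of 16, imprinted genes 2 and 0 of 8, integrin and matrix genes 0 and 1 of 6, blastocoel transport genes 3 and 0 of 6, and genes of 4-cell and 8-cell onset 1 and 1 of 11. Zinc finger genes of the ZNF and ZFP names gave 7 higher and 13 lower of 107, with ZNF565 at 54.4 and 4.43.

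The falls were led by genes of several histories. CCDC85A (chromosome 3, 84958384 to 85649854) went from 43.4 to 0.196, a 222-fold drop (124 to 445), after 433 in the oocyte and 399 at the 4-cell stage. TRIM77 went from 227 to 19.2 after 1480 in the oocyte. TLR3, a receptor for double-stranded RNA (chromosome 15, 46966262 to 46977774), fell from 83.6 to 2.50, a 33.4-fold drop (27.4 to 41.2), and FUT9, a fucosyltransferase, from 72.6 to 2.43, a 29.9-fold drop (23.1 to 39.4). Both had been close to 0 up to the 2-cell stage and had come on at the 4-cell stage, at 26.1 and 106. SDS, serine dehydratase, fell from 34.0 to 0.478 and MS4A12 from 19.5 to 0.229 after a like course. PHYHIPL went from 48.1 to 1.18 and ATOSA from 36.1 to 1.26. Several genes known from germ cells or from other tissues were among the largest falls. SPATA22, of meiotic recombination, went from 209.9 to 10.3, PSMA8, a proteasome subunit of the testis, from 41.7 to 1.89, LALBA, a milk protein, from 27.7 to 1.11 and CD37, of leukocytes, from 18.2 to 0.634. SPATA22 was at 24.8 in the oocyte and 22.1 in the 4-cell library, so its 8-cell share was the highest of these.

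Of 30 oocyte transcripts listed, 16 were compared, and 0 rose and 7 fell, with all 16 lower in the morula and a median of -0.96. OOSP2, a secreted oocyte protein, went from 33.9 to 4.99 after 9461 in the oocyte, and BTG4, which promotes removal of maternal mRNA, from 16.9 to 2.72 after 6335. DDX4, the germ cell helicase VASA, was different, at 8.09 in the oocyte, 42.5 in 8-cell embryos and 3.99 in morulae.

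**Figure D3:**
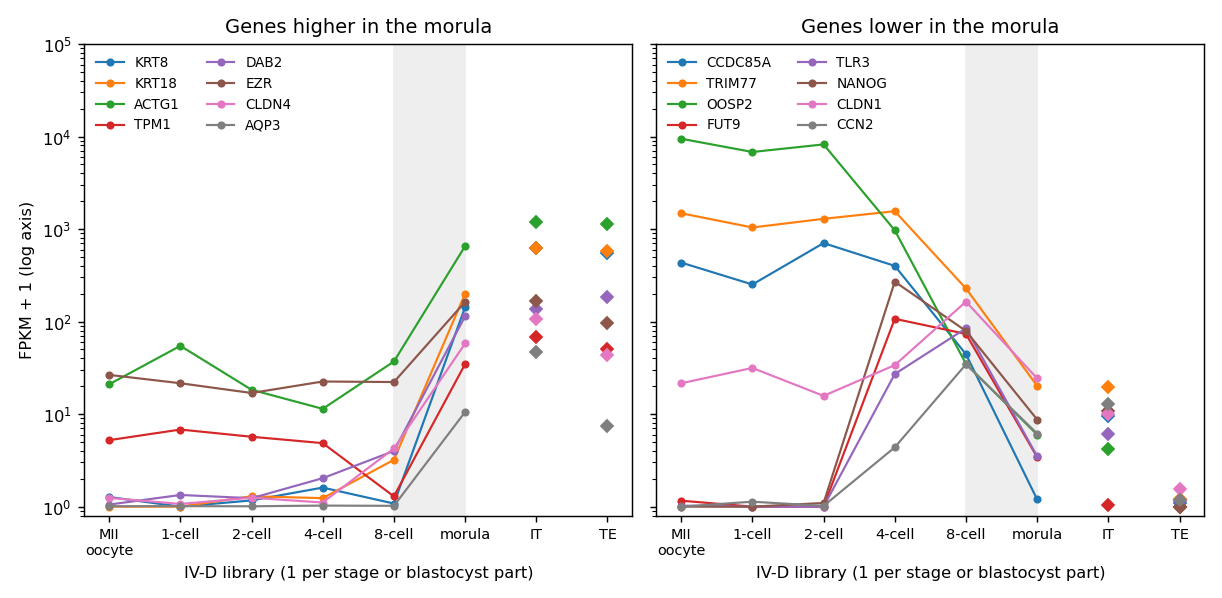
FPKM + 1 (log axis) of 8 genes higher (left) and 8 genes lower (right) in the morula across the 8 IV-D libraries, with lines from the oocyte to the morula, diamonds for the IT and TE parts of the blastocyst and a grey band over the step. KRT8 and KRT18 rise most steeply at this step, while CCDC85A, TRIM77 and OOSP2 come down from the oocyte and FUT9, TLR3 and NANOG from a peak at the 4-cell or 8-cell stage.

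Genes that appeared or disappeared were counted by levels. A gene was gained when its FPKM value was under 1 in 8-cell embryos and at least 5 in morulae, and lost in the reverse case. Gained genes numbered 66 (0.767% of the 8603 of the table) and lost genes 57 (0.663%). Of the gained genes 4 had no fragment in the 8-cell library and 5 had 1 to 3. The 10 with a symbol and the highest morula values were KRT8, SLC19A3, TPM1, CST6, FST, SLC3A2, CTSD, RHOV, PLPP2 and MREG. SLC19A3, a thiamine transporter, went from 0.681 to 46.6, and CST6, a cystatin, from 0.557 to 30.1 (7 and 388 fragments). RHOV, a small GTPase, had 0 fragments and then an FPKM value of 20.1, 444-fold above the level of 3 fragments. FST (follistatin) had 0 fragments and then 20.6, 146-fold above that level, and MREG (melanoregulin) 0 and then 17.5, 344-fold. The exact lower limits of the ratios were 361 for RHOV, 118 for FST and 279 for MREG. UPP1, uridine phosphorylase, at 1.85 and 56.9, and BEX4, at 21.7 and 459, rose as steeply from levels that the definition does not cover. Of the 66 gained genes 36 had been under 1 in all 4 earlier libraries, and FST, at 6.51 in the oocyte, was among those that had not. After the morula 57 reached 5 FPKM in IT and 52 in TE, 47 in both.

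Lost genes had different histories. Of the 57, 28 were under 1 from the oocyte to the 2-cell stage and 17 were at 5 or more in the oocyte. SDS, MS4A12, GPR155 and CYSLTR1 belonged to the first kind, and CCDC85A, SEMA3D, TCTN2 and CLGN to the second. SEMA3D, a secreted guidance factor, went from 16.8 to 0.889, and TCTN2, of the ciliary base, from 13.4 to 0.702. In the blastocyst parts 45 of the 57 were under 1 in both IT and TE, and CCDC85A alone was at 5 or more in IT.

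Among genes without a symbol, the 2 largest rises and the 2 largest falls on the log2 scale were the following. ENSSSCG00000039731 went from 13.7 to 1621 and ENSSSCG00000031750 from 0.295, which is 1 fragment, to 129. ENSSSCG00000032708 went from 328 to 1.11 and ENSSSCG00000034995 from 354 to 2.21. What they encode was not analysed here.

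The called genes also differed in earlier libraries that the rule did not use. In the oocyte 55.4% of the genes that rose reached 1 FPKM, against 75.3% of those that fell and 72.9% of all genes compared. A value of at least 10 in the oocyte was found for 21.8%, 51.9% and 38.5% in the same order. The median oocyte value was 1.54 for genes that rose and 11.2 for genes that fell. The median of the rising genes was 4.37 in 8-cell embryos, 16.1 in morulae, 23.0 in IT and 16.1 in TE, and that of the falling genes 17.3, 4.42, 3.45 and 2.98. Medians of the 8-cell and morula libraries follow from the rule, and those of the blastocyst parts stayed on the morula side. X-linked genes were called at rates near those of all genes, 13.3% higher and 12.4% lower of 218.

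The parts of the blastocyst were compared by the same rule, TE against IT. Over all genes compared there, 9.83% were higher in TE and 18% lower. Among genes that rose at the morula 10.4% were higher and 29.9% lower in TE, and among genes that fell 12.3% were higher and 19.4% lower. So the rising genes were lower in TE than in IT more often than the background, and the share higher in TE was near it. IT held trophectoderm cells too, so its level is no pure inner cell mass level.

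Promoters of the genes that rose were richer in G and C than those of the genes that fell, with a median of 64.7% against 58.3%, and 61.3% for all 6896 promoters. The Sp and KLF core GGGCGG was in 70.2% of the 725 promoters of rising genes, 57.6% of the 754 of falling genes and 63.3% of all. The E-box CACGTG was in 12.4%, 7.82% and 10.2%. The AP-1 element TGANTCA was in 3.72%, 5.44% and 4.47%, TATAAA in 7.31%, 9.15% and 8.37%, and CCAAT in 36%, 37.7% and 37.8%. The cyclic AMP element TGACGTCA was in 2.62%, 3.05% and 3.26% and the octamer ATGCAAAT in 1.38%, 1.59% and 1.07%. GGAATG was in 10.6%, 12.5% and 11%. All were searched on both strands of 300 bases.

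The step was set beside the same step of the cloned embryos, whose libraries it does not share. In NT-D embryos 31.6% of genes compared were higher in the morula and 12% lower, and in NT-LW embryos 22.4% were higher and 12.4% lower. The medians of all genes in these steps were 0.45 and 0.19 on the log2 scale, against -0.03 in IV-D embryos. Of the 903 genes that rose in IV-D embryos, 667 rose in NT-D (73.9% of the IV-D list and 26.5% of the NT-D list) and 567 in NT-LW embryos (62.8% and 32.8%). Of the 994 that fell, 410 fell in NT-D (41.2% of the IV-D list and 43.0% of the NT-D list) and 361 in NT-LW embryos (36.3% and 37.7%). All these shares of the IV-D list lay above the share of all genes called in the clones. In both cloned groups, 508 of the rising (56.3%) and 205 of the falling genes (20.6%) passed in the IV-D direction. The share of all genes that passed in both groups was not counted, so these numbers have no background beside them.

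**Figure D4:**
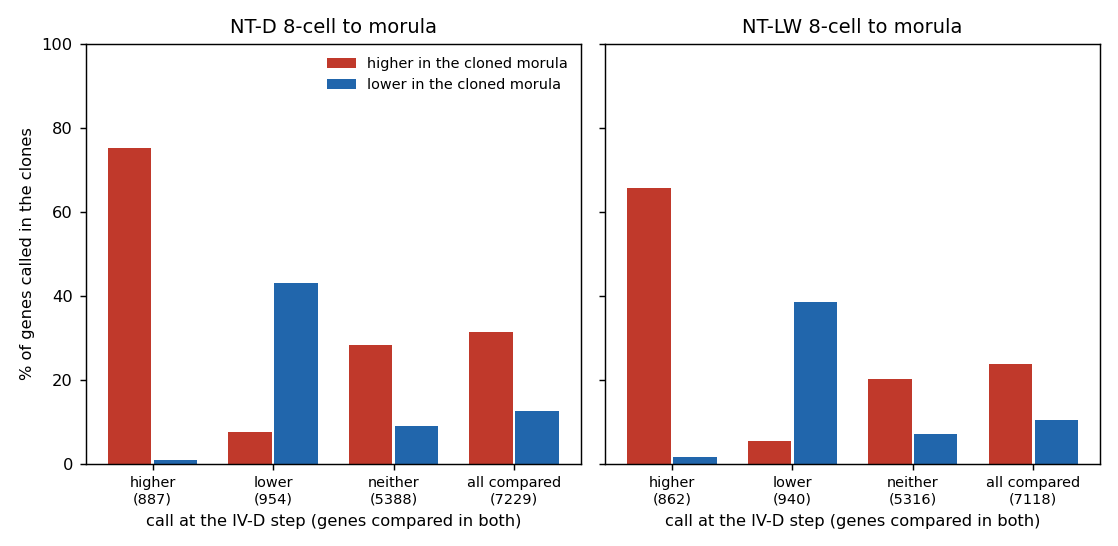
Share of genes (vertical, %) called higher (red) or lower (blue) from 8-cell embryos to morulae in NT-D (left) and NT-LW clones (right), for genes higher, lower or neither at the IV-D step and for all genes compared in both, with their number in parentheses. Of the genes that rose in IV-D embryos 75.2% rose in NT-D and 65.8% in NT-LW, above 31.3% and 23.7% for all.

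The epithelial genes were among those shared. KRT8 had 0 fragments in both cloned 8-cell libraries and FPKM values of 161 in NT-D and 19.8 in NT-LW morulae. KRT18 went from 0 to 269 in NT-D and from 0.187 to 14.5 in NT-LW, DAB2 from 0.418 to 196 and from 0.657 to 126, and EZR from 8.36 to 117 and from 13.6 to 67.7. CDH1 passed the rule in both, from 12.1 to 35.7 in NT-D and from 18.6 to 43.7 in NT-LW embryos. These are log2 differences of 1.49 and 1.19, in steps where the medians of all genes were 0.45 and 0.19. ARG1, already at 309 in IV-D 8-cell embryos, went from 13.1 to 197 and from 14.3 to 420.1 at this step in the clones, and CKB from 24.8 to 1877 and from 7.89 to 1642. Of the gained genes 57 of 66 rose in NT-D embryos and 53 in NT-LW embryos, where 31.6% and 22.4% of all genes compared rose. Of the lost genes 25 and 20 of 57 fell, beside 12% and 12.4% of all genes compared. Among oocyte transcripts BTG4 stayed at 108 and 111 in NT-D embryos and fell from 289.8 to 14.0 in NT-LW. CLDN1 did not fall in either, at 35.9 and 36.1 in NT-D and 18.4 and 57.0 in NT-LW embryos. The difference between groups was not tested, since each value has 1 library behind it.

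Markers of other cells had few rows in the table, and a marker without a row was not analysed here. Of 13 cumulus and granulosa markers 3 had a value, with a summed FPKM of 21.8 in 8-cell embryos and 30.4 in morulae. VCAN and FST carried it, which the oocyte library also held (120 and 6.51), and HAS2 was at 0.241 and 0. Fibroblast markers had 6 of 17 with a value and sums of 2.06 and 0.540, with COL1A1 at 0.154 and 0 and VIM at 1.02 and 0.411. Oviduct and uterus markers had 2 of 15 (1.72 and 0.959), blood markers 3 of 14 (2.82 and 3.58, with FCER1G higher in the morula at 0.191 and 1.55) and sperm markers 1 of 12 (5.00 and 7.11). The part of other cells in the changes was not tested beyond these sums.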

How the data were processed

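Values of 2 libraries were compared, IV-D 8-cell embryos and IV-D morulae, with the 6 other IV-D libraries and 4 clone libraries beside them. The authors amplified RNA with SMART-Seq v4, aligned read pairs to Sscrofa11.1 with HISAT2 2.0.4 and counted them with HTSeq 0.9.1 (Ensembl annotation). FPKM is the unit of the deposited values. The strand setting of the counting is not given in the sources used here, so overlapping and antisense genes cannot be told apart. The table is named for differentially expressed genes, so counts are counts within it. Whole fragments were recovered from the FPKM steps for 8603 of 8603 genes (within 0.01 fragments), which gave lengths and depths and was checked on simulated data. Genes with 0 fragments were set against a fixed level of 3 fragments. For a gene of 1000 bases this is an FPKM value of 0.146 in 8-cell embryos and 0.142 in morulae.

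The call rule was a difference over 1 in log2(FPKM + 1), among genes reaching 1 FPKM on either side. With 1 library per stage no p-value between stages exists. Symbols came from the gene table (7371 genes) and positions, strands and promoters from RefSeq (6909 symbols with 1 position, 6896 promoters). Named genes were the 12 largest rises and 12 largest falls that had a symbol and reached 10 FPKM, the 10 highest gained and lost genes, the 3 largest called changes of each of 42 lists and a set of anchors. A few further members of lists (PSAP, MYL9, ACTN1, LRP2, LIMA1, CFL1, RHOA, RAC1, MYL6, RAB5A, COX6A2, MDH1, CCNB1, CDK1, CDK4, BMP4, NR5A2), CLDN8, the genes at the limits, markers of other cells, the mitochondrial genome, the X chromosome and the CArG box were chosen after their values were seen. The genes, lists and comparisons were chosen with earlier results of these data known, and no list is independent support. The alternatives were pseudocounts of 0.1 and 5, a minimum FPKM of 5 or none, a common library sum (1000000) or scaling by median ratios, a binomial test of fragments (exact, adjusted p-value under 0.005, with total depth or with a trimmed mean that dropped 30% of ratios and 5% of levels from either tail), genes with a symbol only, and other limits for gained and lost genes. Scripts ran in python 3.11.15 with pysam 0.24.0, scipy 1.17.1, matplotlib 3.10.9, pandas 2.3.3 and numpy 2.4.6.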

Additional observations from a re-analysis of the deposited data

Results flagged for a closer look

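At the step from 8-cell embryo to morula, 17 genes passed the fold rule in one direction in IV-D embryos and in the other direction in both cloned groups. Each group has 1 library per stage, so the difference between groups was not tested. The clones were also all male and cultured in vitro, which cannot be told apart from cloning here. Those that have a symbol and reached 10 FPKM in IV-D embryos are given here.

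KITLG, the ligand of the KIT receptor, fell by 2.28 on the log2 scale in IV-D embryos, from 16.8 to 2.66, and went from 7.24 to 37.4 in NT-D and from 16.6 to 39.1 in NT-LW embryos. PLD6, a mitochondrial phospholipase of the piRNA pathway, fell by 2.75, from 74.0 to 10.2, and went from 2.57 to 13.3 and from 0.275 to 7.92 in the clones, so the morula values of the 3 groups lay closer together than their 8-cell values. FRRS1 fell by 1.71 in IV-D embryos and rose from 4.12 to 9.77 in NT-D and from 7.13 to 17.0 in NT-LW embryos. The falls of ZC3H14 (1.17), GPR160 (1.15), CDCA4 (1.15) and SF3B4 (1.02) were smaller. Their log2 differences are -1.17, -1.15, -1.15 and -1.02, with -2.75, -2.28 and -1.71 for PLD6, KITLG and FRRS1. SF3B4, a splicing factor, was at 186 in IV-D 8-cell embryos against 24.2 in NT-D and 14.2 in NT-LW, and at 91.3, 127 and 70.5 in the morulae.

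NEFL, a neurofilament protein, rose by 1.72 in IV-D embryos, from 6.71 to 24.4, and went from 20.8 to 6.94 and from 25.9 to 10.5 in the clones. ATP8 of the mitochondrial genome rose by 1.17 in IV-D embryos and went from 109.8 to 0.519 and from 76.7 to 33.1 in the clones. Its gene overlaps ATP6, so how reads were divided between them is uncertain. ATP8 spans only 204 bases, so its NT-D morula value of 0.519 rests on few fragments. Lower morula values in the clones were also not limited to ATP8. The median log2 difference of the 13 mitochondrial protein genes was -0.92 for NT-D and -1.02 for NT-LW clones. For the IV-D group this median was 0.20.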

How the results depend on the processing

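Under a pseudocount of 5 the genes higher and lower in the morula fell to 458 and 506, which are all among the 903 and 994, because that pseudocount takes low genes below the limit. The exact binomial test on fragments, which compares 2 libraries and not 2 stages, called 1292 higher and 1533 lower, and 1406 and 1399 with a trimmed-mean depth. The other 6 alternatives gave 738 to 1148 higher and 786 to 1346 lower genes. Rescaling to a common sum moved the median of all genes to -0.13, with 1346 lower and 897 higher genes. Limits of 10 and 1 gave 32 gained and 15 lost genes, and limits of 2 and 0.5 gave 89 and 95. Shares of the called genes in the clones and in TE against IT moved by less than 1.5 times under the 3 alternatives tried. Of 36 list medians, 4 near 0 changed sign: replication licensing (-0.0128), 4-cell and 8-cell onset genes (-0.0119) and translation factors (-0.0620) with the common sum, and nucleolar genes (0.00646) with median-ratio scaling. Of 153 named genes LATS2 (-0.0598, common sum) and TFAP2C (0.000117, median ratio) changed sign. A pseudocount of 5 ended the call of 24, among them GATA2, GATA3, ELF3, JUP, AFDN, CCN1, MYC and DNMT3A, and the common sum those of DSC2 and PSMD1. No paired analysis was possible because each stage has 1 library. Depth fixes the fragments of a library and not the spread between sows or embryos, for which these 2 libraries hold no measure.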
